A study of Homo sapiens with 6 samples.

Results

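HCT116 is an established human colon carcinoma cell line, widely used as a model of colorectal cancer, and the genes and families that its untreated cells expressed, lacked or favoured were described. The members are the 2 libraries labelled untreated, of 6 in the series, chosen by their titles. The other 4 libraries, from cells given the compound SP2509 (3 uM, 48 h) or a knockdown of PIR, were not used. Both libraries are labelled wildtype and were made with a strand-specific kit from RNA of cells grown in DMEM with serum, penicillin and streptomycin. The protocol shared by all samples mentions DMSO as an alternative to the compound, and whether the untreated cells received that solvent is not said. Nothing in the labels states that the 2 libraries came from separate cultures, so the spread between them may be technical. Their descriptions carry a number that differs between the 2 libraries and recurs among the treated ones, and the labels do not explain it. With 1 group there is no contrast and no p-value, and every level is given for library 1 and then for library 2.

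The colon epithelium renews itself from stem cells at the crypt base, which are kept dividing by WNT signals and mature into absorptive, goblet, enteroendocrine and tuft cells as they move towards the lumen. CDX, HNF4, KLF and GATA transcription factors direct this programme, HOX genes record the position along the gut, and keratins, cadherins, claudins and integrins hold the sheet together. Colorectal cancers keep parts of this identity, lose others through mutation or promoter methylation, and usually reactivate telomerase. HCT116 carries activating mutations in CTNNB1 and PIK3CA, known from other work and not read from these data.

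Levels are given as TPM, the share of a gene in the length-corrected transcripts of its library, computed from the deposited estimated counts and exon lengths so that genes of different length can be set side by side. A gene was called expressed at 1 TPM or more in both libraries, and undetected at 0 counts in both. A count of 0 still allows up to 3 counts, which is 0.104 and 0.120 CPM (counts scaled to the library total) in these libraries of 28816590 and 24945320 counts, and this limit covers counting error only. Of 19693 protein-coding genes, 12229 were expressed (62.1%) and 3790 had 0 counts in both libraries (19.2%). The median over all protein-coding genes was 6.68 TPM. These shares are the background for every list below.

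A small set of genes dominated the mRNA pool. In library 1, 754 of 19680 nuclear protein-coding genes held 50% of the TPM of that class, and in library 2 the number was 742. EEF1A1, the elongation factor that brings aminoacyl-tRNA to the ribosome, was highest at 7927 ± 439 TPM (SD, n = 2). TMSB10, a small actin-binding peptide, followed at 5914 ± 149 TPM (SD, n = 2), and the chaperone HSP90AB1 reached 4377 ± 58.4 TPM (SD, n = 2). ACTG1, GAPDH, EEF2, PTMA, the ferritin chains FTL and FTH1, and the ribosomal proteins RPS2, RPL13A, RPL8, RPS12, RPL41 and RPL7 completed the first 15, with means between 2486 and 4110 TPM. Among long non-coding RNAs the highest were LRRC75A-AS1 (613 and 608 TPM), a host gene of small nucleolar RNAs, then RP11-297P16.4 (457 and 558 TPM) and SNHG6 (313 and 382 TPM). Of 14330 long non-coding genes, 1683 were expressed (11.7%). Mitochondrially encoded genes held 28.6% and 28.1% of all TPM, which lowers every nuclear TPM by the same factor within a library.

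The libraries differed little. The biological coefficient of variation estimated by edgeR was 4.41% over 15736 genes. Among 8668 nuclear protein-coding genes of at least 10 TPM in both, the median absolute log2 difference was 0.067 and the 95th percentile 0.217. Only 8 of these genes differed by more than 1.5-fold, and 0 by more than 2-fold. CNFN, a gene of the cornified envelope, differed most (18.5 and 10.3 TPM), followed by the lipase inhibitor ANGPTL4 (34.4 and 20.5 TPM), C6orf226 (18.3 and 11.03 TPM) and ENHO (19.6 and 11.9 TPM), all lower in library 2. AQP3, a glycerol and water channel, was the fifth and was higher in library 2 (40.6 and 61.99 TPM). The chi-square per degree of freedom between the libraries was 4.149 over 16252 genes, above counting error, so they are not 1 library deposited in duplicate. Whether they differ by more than 2 preparations of 1 RNA would cannot be told from this value.

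The cells expressed a broad set of general epithelial genes. All 25 genes of a list of epithelial identity were expressed, against 62.1% of protein-coding genes, with a median of 109 TPM, and 14 of them were at 100 TPM or more in both libraries. KRT19, a type I keratin of simple epithelia, was present at 1284 and 1224 TPM. The type II keratin KRT8 stood at 1119 and 1124 TPM, and KRT18, also a type I keratin, at 934 and 905 TPM. These keratins form the intermediate filaments of glandular epithelium, and their levels differed by less than 10% between the libraries. EPCAM, the surface adhesion molecule used to sort epithelial cells, was at 334 and 367 TPM. SPINT2, a membrane-anchored inhibitor of serine proteases such as matriptase, was at 197 and 209 TPM. E-cadherin (CDH1), the adherens junction protein of epithelia, was at 80.9 and 75.1 TPM.

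The transcription factors that specify intestine were only partly present. Of 25, 15 were expressed (60.0%) and 6 had 0 counts in both libraries (24.0%), close to the 62.1% and 19.2% of all protein-coding genes. KLF5, a factor of proliferating crypt cells, led at 145 and 159 TPM. SOX9, which marks progenitors of the crypt, was at 144 and 133 TPM. TCF7L2, the nuclear partner of beta-catenin in the intestine, was at 97.6 and 99.7 TPM. The Notch target HES1 was at 54.3 and 51.2 TPM and KLF4, a factor of differentiating surface cells, at 32.96 and 31.4 TPM. CDX2, the master factor of intestinal identity and one of the markers listed for colorectal epithelium, was expressed at 15.9 and 14.5 TPM. Its paralogue CDX1 had 0 counts in both libraries, a limit of 0.196 and 0.226 TPM. GATA5, ISX, NEUROG3 and PROX1 also had 0 counts in both libraries.

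Genes of differentiated absorptive cells were mostly absent. The list joins enterocyte and colonocyte genes and was not split, so it does not describe the colonocyte alone. Of 34 genes of absorptive enterocytes and colonocytes, 4 were expressed (11.8%) and 15 had 0 counts in both libraries (44.1%). For all protein-coding genes these shares were 62.1% and 19.2%. The median of the list was 0.022 TPM. The carbonic anhydrase CA2 was at 60.8 and 61.4 TPM and the brush border peptidase DPP4 at 20.8 and 22.5 TPM. KRT20, the keratin of mature surface cells, was at 4.48 and 6.09 TPM, and the peptide transporter SLC15A1 at 4.30 and 4.36 TPM. No other member reached 1 TPM in both libraries. Sucrase-isomaltase (SI), the apolipoprotein APOA4, the chloride exchanger SLC26A3, the guanylin genes GUCA2A and GUCA2B and the fatty acid-binding proteins FABP1 and FABP2 had 0 counts in both libraries. Of the 12 markers listed for colorectal epithelium, EPCAM, CDH1, KRT8, KRT18, KRT19, KRT20 and CDX2 were expressed. The liver-intestine cadherin CDH17 had 0 counts in both libraries. The microvillus protein VIL1 had 10 and 14 counts, GPA33, a surface antigen of colon cells, had 4 and 3 counts, the galectin LGALS4 had 1 and 3 counts, and CEACAM5, the carcinoembryonic antigen, had 1 and 0 counts. Of the 7 expressed markers, EPCAM, CDH1, KRT8, KRT18 and KRT19 are general to simple epithelia, and KRT20 and CDX2 are typical of intestine.

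Few genes of the secretory lineages were expressed, with 8.33% of goblet, 17.6% of enteroendocrine and 11.1% of tuft cell genes. Of all protein-coding genes, 62.1% were expressed. Of 12 goblet cell genes 1 was expressed, FCGBP, a protein bound to mucus, at 3.08 and 2.44 TPM, and TFF1, TFF3, CLCA1, AGR2, SPINK4, ZG16 and RETNLB had 0 counts in both libraries. Of 17 enteroendocrine genes 3 were expressed. SCG2, a granin of secretory granules, was at 38.9 and 45.8 TPM, while SCG5 was at 1.62 and 2.11 TPM and the peptide hormone gene PYY at 1.75 and 1.34 TPM. CHGA, the chromogranin commonly used to identify enteroendocrine cells, had 0 counts in both libraries, as did INSM1, GCG, SST, PAX4, RFX6 and NKX2-2. Of 9 tuft cell genes, IL17RB, an interleukin receptor chain, was expressed (20.5 and 19.99 TPM) and HPGDS had 0 counts. None of 7 Paneth cell genes was expressed in both libraries (1 was in library 1 alone, where 2 of the tuft cell genes were), and DEFA5, DEFA6 and REG3A had 0 counts in both libraries.

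Genes of the stem cell zone were mostly present, without its best known marker. Of 19 stem and crypt base genes, 15 were expressed (against 62.1% of protein-coding genes), and the median was 25.1 TPM. CD44, a hyaluronan receptor and WNT target, was at 336 and 316 TPM. The pseudokinase receptor PTK7 was at 82.8 and 80.6 TPM, and RNF43, a ubiquitin ligase that removes WNT receptors, at 74.1 and 71.98 TPM. ALCAM, an adhesion molecule, was at 65.7 and 67.6 TPM, and CD24 at 46.1 and 47.8 TPM. LGR5, the R-spondin receptor that defines crypt base stem cells, had 0 counts in both libraries, a limit of 0.0656 and 0.0756 TPM, as did OLFM4. ASCL2, the stem cell factor, chosen after its values were seen, had 1 and 2 counts.

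**Figure D1:**
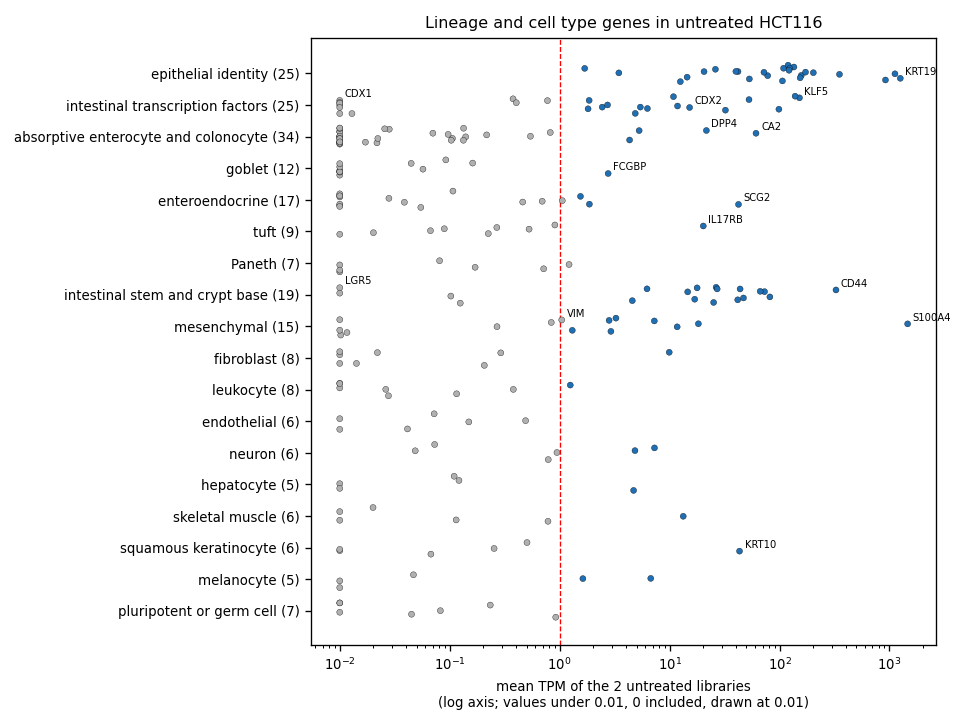
Mean TPM (log axis) of each gene of the lineage lists and of markers of other cell types in the 2 untreated libraries, 1 point a gene. Blue points were at 1 TPM (dashed line) or more in both libraries, grey points were not, and the number of genes stands beside each list. All 25 epithelial genes are blue, while 4 of 34 absorptive genes and none of 7 Paneth genes are.

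Genes of mesenchymal cells were mixed. Of 15, 8 were expressed (53.3%, against 62.1% of protein-coding genes), led by S100A4, a calcium-binding protein of motile cells, at 1376 and 1548 TPM. The transcription factor SNAI1, a repressor of E-cadherin, was at 18.4 and 18.2 TPM, and fibronectin (FN1) at 12.5 and 10.9 TPM. The smooth muscle genes ACTA2 and TAGLN stood at 7.33 and 7.20 TPM and 3.43 and 3.07 TPM. N-cadherin (CDH2) and TWIST2 had 0 counts in both libraries. Vimentin (VIM), chosen after its values were seen, had 57 and 32 counts, which is 1.27 and 0.821 TPM. S100A4 was thus more than 70 times the next gene of the list in both libraries.

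Markers of other cell types were at or near 0 with few exceptions, while 62.1% of protein-coding genes were expressed. Of 57 genes in 9 lists (fibroblast, leukocyte, endothelial, neuron, hepatocyte, skeletal muscle, squamous keratinocyte, melanocyte, pluripotent or germ cell), 9 were expressed. Among them, KRT10, a keratin of stratified epithelium, was at 44.05 and 42.5 TPM, and desmin (DES), the intermediate filament protein of muscle, at 13.8 and 12.8 TPM. No other marker reached 10 TPM in both libraries. COL1A1, a chain of type I collagen, was at 9.28 and 10.6 TPM, while COL1A2, which encodes the second chain, had 0 counts in both libraries. The leukocyte genes PTPRC, CD3E and MS4A1, the muscle genes MYH1 and MYOD1, the keratinocyte genes KRT1 and IVL, and the germ and pluripotency genes NANOG, DPPA4 and DAZL had 0 counts in both libraries. The summed TPM of the fibroblast list was 9.76 and 11.2 TPM, of the leukocyte list 2.01 and 1.59 TPM and of the endothelial list 0.802 and 0.706 TPM, against 5439 and 5385 TPM for epithelial identity.

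HOX genes were expressed mainly from the HOXA and HOXB clusters, with the highest levels in middle and posterior members. Of 39, 25 were expressed (64.1%, against 62.1% of protein-coding genes). HOXB7 (79.1 and 85.3 TPM) and HOXA9 (76.3 and 86.3 TPM) were highest, in opposite order in the 2 libraries, and HOXB8 was at 72.7 and 69.5 TPM. HOXB6 (53.5 and 58.6 TPM) and HOXB9 (36.5 and 35.5 TPM) came next, so 4 of the first 5 lie in the HOXB cluster. HOXB1, the most anterior gene of that cluster, and HOXC12 had 0 counts in both libraries. In the HOXD cluster HOXD8 alone was expressed (8.16 and 6.64 TPM), and the 8 other members averaged under 1 TPM. Of these, HOXD3 and HOXD4, named after their values were seen, share 62.2% and 80.5% of their exon bases with another gene on the same strand, so their low counts are uncertain. HOXB13, a factor of the hindgut, chosen after its values were seen, was at 18.6 and 17.5 TPM.

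**Figure D2:**
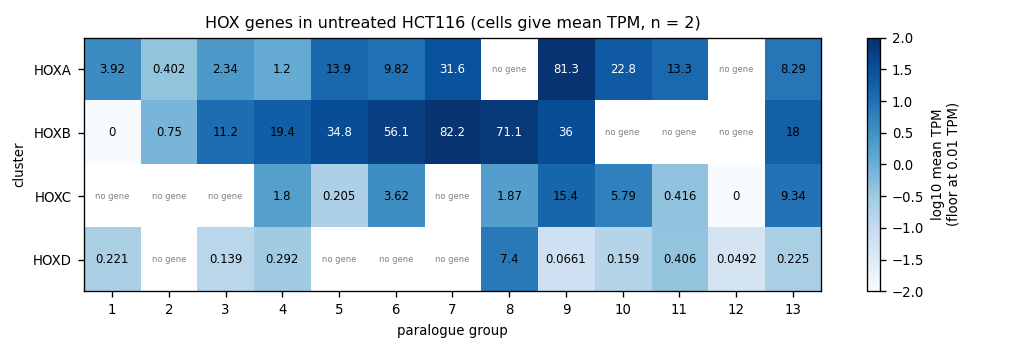
Mean TPM of the 39 HOX genes in the 2 untreated libraries, arranged by cluster (rows) and paralogue group (columns), with the colour on a log10 scale. The middle and posterior HOXB genes and HOXA9 are darkest, HOXD8 is the single dark cell of its row, and HOXB1 and HOXC12 are at 0.

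Receptor tyrosine kinases pass growth signals from outside the cell, and MET was the highest of them. Of 57 receptor tyrosine kinases, 32 were expressed (56.1%) and 5 had 0 counts in both libraries (8.77%). The shares of all protein-coding genes were 62.1% and 19.2%, and the median of the list was 9.67 TPM. MET, which binds hepatocyte growth factor, was at 255 and 246 TPM. The ephrin receptor EPHA2 was at 140.0 and 127 TPM, the collagen receptor DDR1 at 113 and 115 TPM, and EPHB4, another ephrin receptor, at 69.6 and 68.6 TPM. PTK7 (above) was the fourth of this list. EGFR, the target of antibodies used in colorectal cancer, chosen after its values were seen like ERBB2, was at 56.7 and 55.8 TPM, and ERBB2 at 38.1 and 36.4 TPM. MET therefore exceeded EGFR in both libraries by more than 4-fold. MUSK, EPHA3, EPHA5, EPHA6 and ROS1 had 0 counts in both libraries.

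Integrins, which anchor cells to the matrix, were led by the chains of laminin and collagen receptors. Of 26, 14 were expressed (53.8%, against 62.1% of protein-coding genes). ITGB1, the common beta chain, was at 322 and 329 TPM. ITGB4, the beta chain of hemidesmosomes, was at 301 and 260.2 TPM, and its partner ITGA6 at 106 and 100.2 TPM. ITGA3, a laminin-binding chain, was at 198 and 185 TPM, and ITGA2, which binds collagen, at 105 and 98.01 TPM. ITGA4, a chain typical of leukocytes, was the single integrin with 0 counts in both libraries.

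Of the receptors and ligands listed for the WNT, TGF-beta and Notch pathways, most were expressed. The shares were 73.3% of WNT receptors, 57.9% of WNT ligands, 78.6% of TGF-beta and BMP receptors and 77.8% of Notch receptors and ligands. Of all protein-coding genes, 62.1% were expressed. Of 15 WNT receptors, 11 were expressed, with the co-receptor LRP5 at 64.9 and 61.9 TPM and the Frizzled receptors FZD6 at 60.5 and 61.4 TPM, FZD7 at 39.7 and 38.6 TPM and FZD2 at 39.2 and 37.3 TPM. LRP6 was at 29.3 and 29.7 TPM, and FZD10 and LGR5 had 0 counts in both libraries. Of 19 WNT ligands 11 were expressed, led by WNT16 (40.3 and 36.9 TPM) and WNT6 (11.9 and 10.6 TPM), with WNT10B at 10.8 and 9.71 TPM, and WNT2, WNT5A, WNT8A and WNT9B had 0 counts in both libraries. Both receptors of TGF-beta were transcribed at close levels, TGFBR1 at 40.8 and 39.2 TPM and TGFBR2 at 40.1 and 39.8 TPM. HCT116 is known to carry frameshift mutations in TGFBR2, which a transcript level does not show. The activin receptor ACVR1B was at 27.4 and 27.3 TPM, and of 14 receptors of this class 11 were expressed. NOTCH3 (62.8 and 59.97 TPM) was the highest of the Notch receptors, above NOTCH2 (34.7 and 29.9 TPM) and NOTCH1 (30.8 and 29.9 TPM), and the ligands JAG1 (56.7 and 52.95 TPM) and JAG2 (46.4 and 40.97 TPM) were expressed beside it.

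Of 29 TNF receptor superfamily genes 18 were expressed (62.1%), the same share as of all protein-coding genes (62.1%). TNFRSF21 was at 138 and 127 TPM. TNFRSF10B, a death receptor for TRAIL, was at 108 and 109 TPM, and TNFRSF10D, a TRAIL receptor with a truncated death domain, at 104 and 95.96 TPM. TNFRSF12A, the receptor of TWEAK, was at 99.2 and 80.7 TPM. TNFRSF4, CD27, TNFRSF13B and TNFRSF11B had 0 counts in both libraries, and so did TNFRSF6B, all of whose exon bases are shared with another gene on the same strand, so that its 0 is uncertain. Of 41 interferon and interleukin receptor genes 25 were expressed (61.0%), also near that background, led by IL13RA1 (51.3 and 48.7 TPM), IFNGR1 (43.5 and 49.2 TPM) and OSMR (43.2 and 35.9 TPM), with IFNGR2 at 38.5 and 36.9 TPM and IFNAR1 at 32.9 and 29.6 TPM. IL2RA, IL12RB1, IL12RB2 and PRLR had 0 counts in both libraries. Of 10 Toll-like receptors 4 were expressed (40.0%), all under 5 TPM, and TLR2, TLR4 and TLR8 had 0 counts in both libraries. Of 22 chemokine receptors 2 were expressed (9.09%, against 62.1% of protein-coding genes). CXCR4, which guides cells along CXCL12, was at 7.07 and 7.26 TPM, and CCR10 at 1.23 and 1.26 TPM.

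G-protein-coupled receptors sense hormones, lipids and proteases, and in each of 2 lists 1 member stood far above the rest. Of 64 receptors of small ligands, proteases and lipids, 27 were expressed (42.2%) and 17 had 0 counts in both libraries (26.6%). For all protein-coding genes these shares were 62.1% and 19.2%. F2RL1, the protease-activated receptor cleaved by trypsin, reached 289.8 and 279.9 TPM, several times the next member, the thrombin receptor F2R (52.8 and 50.2 TPM). LPAR3, a receptor of lysophosphatidic acid, was at 50.2 and 47.8 TPM, the adenosine receptor ADORA2B at 39.8 and 42.2 TPM and the adrenergic receptor ADRA2C at 42.8 and 38.8 TPM. Of 45 receptors of peptide hormones, 9 were expressed and 17 had 0 counts in both libraries. NTSR1, the high-affinity neurotensin receptor, stood at 300.0 and 276 TPM, and SSTR5, a somatostatin receptor, at 31.6 and 34.2 TPM. MC1R (8.45 and 9.16 TPM), KISS1R (7.99 and 6.54 TPM) and GIPR (4.46 and 5.45 TPM) were each under 10 TPM. F2RL1 and NTSR1 were thus each more than 5 times the second member of their list in both libraries.

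Nuclear receptors are transcription factors switched by hormones, lipids and other ligands. Of 48, 30 were expressed (62.5%) and 12 had 0 counts in both libraries. Among all protein-coding genes 62.1% were expressed, close to the share of this list, and 19.2% had 0 counts in both libraries. NR2F6 (99.5 and 90.8 TPM) and NR2F1 (94.3 and 93.9 TPM), both orphan receptors, were highest, within 10% of each other and in opposite order in the 2 libraries. The circadian repressors NR1D2 and NR1D1 were at 82.3 and 82.3 TPM and 69.1 and 59.95 TPM, and ESRRA, a regulator of mitochondrial genes, at 71.8 and 75.04 TPM. The retinoic acid receptor RARB, its partner RXRG, RORA, RORB, the bile acid receptor NR1H4, NR1I3, ESRRG and NR2E1 had 0 counts in both libraries. So did NR0B1, NR0B2 and the steroid receptor PGR, named after their values were seen.

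**Figure D3:**
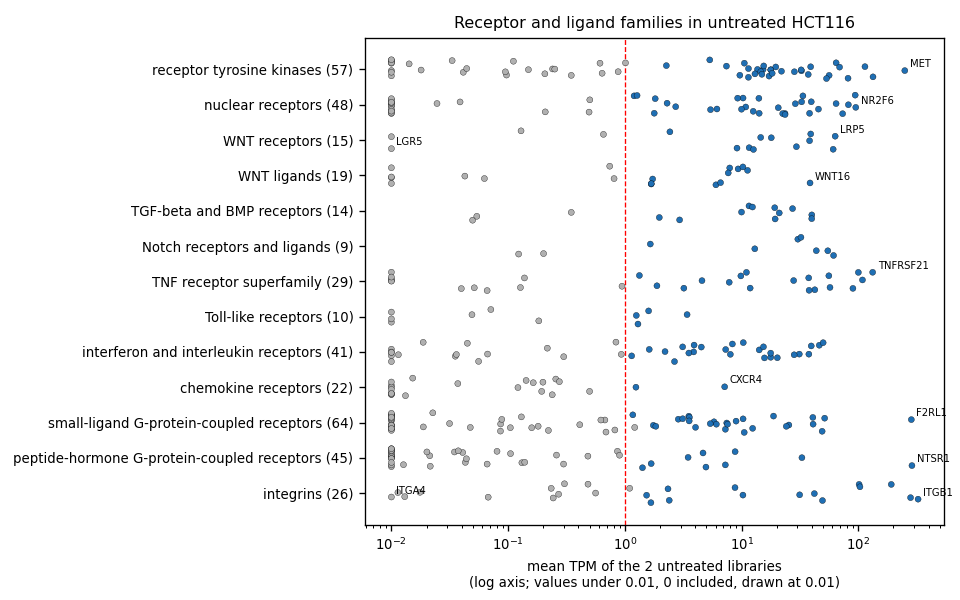
Mean TPM (log axis) of each gene of 13 receptor and ligand lists in the 2 untreated libraries, 1 point a gene. Blue points were at 1 TPM (dashed line) or more in both libraries and grey points were not. MET, F2RL1, NTSR1 and ITGB1 stand at the high end of their lists, and LGR5 and ITGA4 are at 0.

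The series concerns repression of TERT, the catalytic subunit that adds telomere repeats, and the untreated level is its starting point. TERT had 262.5 and 223 counts in the 2 libraries, with exact 95% Poisson intervals of 231 to 296 and 195 to 254, and stood at 9.11 and 8.94 CPM. This is 6.55 and 6.41 TPM, or 6.48 ± 0.0945 TPM (SD, n = 2). TERT lies at chr5:1253147-1295069 on the minus strand (GRCh38), and its level is slightly under the median of all protein-coding genes (6.68 TPM). It was the lowest of the 11 expressed genes of a list of 12 holoenzyme and assembly factors. TERC, the RNA template, had 0 counts in both libraries. That 0 carries little information, because 81.0% of the exon bases of TERC are shared with a second annotated gene on the same strand, which also had 0 counts. The floor for this short gene is 0.636 and 0.734 TPM.

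Other telomerase components were abundant. The H/ACA proteins that bind TERC, which also serve small nucleolar RNAs, were at 314 and 333 TPM for NOP10, 231 and 241 TPM for NHP2, 119.8 and 128 TPM for dyskerin (DKC1) and 70.7 and 84.6 TPM for GAR1. The assembly ATPases RUVBL2 and RUVBL1 were at 148 and 139.7 TPM and 66.7 and 68.7 TPM. PARN, a nuclease that trims the 3' end of TERC, was at 45.1 and 39.7 TPM. The H/ACA assembly factors NAF1 (24.6 and 22.7 TPM) and SHQ1 (19.6 and 22.61 TPM) and WRAP53 (20.7 and 19.4 TPM), which carries telomerase to Cajal bodies, were lowest among the partners and still about 3 times TERT. All 6 shelterin genes, which cap the chromosome end, were expressed, from TERF2 at 65.8 and 64.8 TPM through TERF2IP (48.4 and 50.6 TPM), TINF2 (30.5 and 30.6 TPM) and ACD (29.2 and 24.96 TPM) to TERF1 (18.8 and 18.9 TPM) and POT1 (16.9 and 15.8 TPM). ACD, whose protein recruits telomerase to the telomere, was thus more than 3 times TERT in both libraries.

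Of 71 genes known from other studies for promoter hypermethylation in colorectal cancer, 28 had 0 counts in both libraries (39.4%, against 19.2% of protein-coding genes). Another 22 were expressed (31.0%, against 62.1%). Methylation was not measured here. The undetected genes include inhibitors of WNT signalling (SFRP1, SFRP2 and WIF1), the protease inhibitor TFPI2, the mitotic checkpoint ligase CHFR, the adhesion molecule CDH13, the bone morphogenetic protein BMP3 and the neurogenic factor NEUROG1. SFRP5, SOX17, IKZF1, CDO1, TAC1, SDC2, EFEMP1, MAL and ITGA4, named here after their values were seen, also had 0 counts in both libraries. Not every gene of the list was low. DKK1, a secreted WNT antagonist, was at 619 and 619 TPM in the 2 libraries, more than 5 times the next gene of the list. SEPTIN9, used as a blood test for colorectal cancer, was at 114 and 105 TPM, the helicase HLTF at 90.7 and 85.5 TPM, the mitophagy receptor BNIP3 at 52.4 and 49.3 TPM and the transcription factor RUNX3 at 30.6 and 29.7 TPM. CDKN2A was at 28.4 and 29.3 TPM. The repair gene MGMT, chosen after its values were seen, was at 12.3 and 10.6 TPM.

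The 250 bases before the start of 4 of these genes are shown to set a pair of undetected genes beside a pair of strongly expressed ones. They were chosen after their values were seen, come from RefSeq (GRCh38.p14), and run 5' to 3' on the strand of the gene, with each CG dinucleotide, the site of DNA methylation, in capitals. CHFR lies on the minus strand (chr12:132887606-132887855) and HLTF too (chr3:149086534-149086783), while ITGA4 (chr2:181457136-181457385) and DKK1 (chr10:52314031-52314280) lie on the plus strand.
CHFR: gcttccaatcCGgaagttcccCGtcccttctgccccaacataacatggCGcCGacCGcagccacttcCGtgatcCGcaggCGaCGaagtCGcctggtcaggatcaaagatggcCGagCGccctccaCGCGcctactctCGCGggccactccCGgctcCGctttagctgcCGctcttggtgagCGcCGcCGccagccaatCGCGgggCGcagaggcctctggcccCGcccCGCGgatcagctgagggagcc
ITGA4: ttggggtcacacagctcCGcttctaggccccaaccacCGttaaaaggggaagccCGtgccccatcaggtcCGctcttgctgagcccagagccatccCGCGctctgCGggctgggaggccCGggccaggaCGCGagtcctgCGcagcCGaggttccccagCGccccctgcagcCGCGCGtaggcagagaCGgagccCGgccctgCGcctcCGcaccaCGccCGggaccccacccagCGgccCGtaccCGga
DKK1: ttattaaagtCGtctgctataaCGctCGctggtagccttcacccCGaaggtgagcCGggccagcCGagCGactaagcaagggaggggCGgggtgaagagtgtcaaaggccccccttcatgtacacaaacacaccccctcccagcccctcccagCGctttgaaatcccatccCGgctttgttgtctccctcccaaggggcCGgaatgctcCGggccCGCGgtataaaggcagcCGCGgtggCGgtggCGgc
HLTF: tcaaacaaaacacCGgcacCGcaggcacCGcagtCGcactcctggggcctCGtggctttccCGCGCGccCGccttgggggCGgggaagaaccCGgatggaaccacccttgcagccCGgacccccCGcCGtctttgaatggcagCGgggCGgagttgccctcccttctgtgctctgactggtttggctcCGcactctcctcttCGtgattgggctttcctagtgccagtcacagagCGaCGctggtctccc
Over 300 bases, from 250 before to 50 after the start, CHFR held 37 CG dinucleotides, ITGA4 31, HLTF 27 and DKK1 20. The median of 35116 windows of that length was 14, and as many as in CHFR occurred in 11.3% of them, as in ITGA4 in 20.7%, as in HLTF in 28.2% and as in DKK1 in 41.2%. These 4 windows were thus all above the median in CG content. Windows existed for 50 of the 71 genes of the list, and their CG content was not compared. CHFR has a second annotated window, and only 1 is shown.

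**Figure D4:**
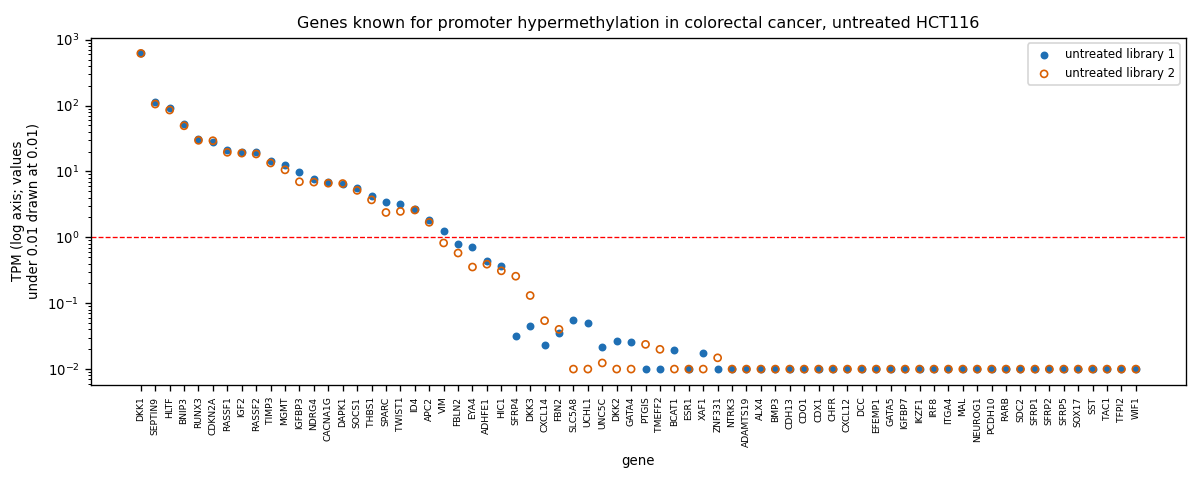
TPM (log axis) in each untreated library for 70 of the 71 genes of the hypermethylation list, in order of their mean. The dashed line is at 1 TPM, and values under 0.01 are drawn at 0.01. DKK1 is highest at 619 TPM in both libraries, and the 28 genes at the right have 0 counts in both.

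Imprinted genes, expressed from 1 parental allele in normal tissue, were expressed about as often as protein-coding genes in general. Of 32, 22 were expressed (68.75%) and 8 had 0 counts in both libraries. The shares of all protein-coding genes were 62.1% and 19.2%. PHLDA2 (347 and 309 TPM), a growth inhibitor of the placenta, was highest, followed by GNAS (148 and 141 TPM), RB1 (37.9 and 37.4 TPM), IGF2R (34.7 and 33.8 TPM) and PEG10 (33.9 and 33.2 TPM). MAGEL2, NDN and SNRPN, which lie in the imprinted region lost in Prader-Willi syndrome, had 0 counts in both libraries. PEG3 and its neighbour ZIM2, NNAT, and the genes MEG3 and RTL1 of a shared imprinted domain also had 0 counts in both libraries. Of these, SNRPN and ZIM2 share 33.6% and 41.2% of their exon bases with another gene on the same strand.

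Cancer-testis genes are silent in most adult tissues and often active in tumours. Of 68, 14 were expressed (20.6%) and 30 had 0 counts in both libraries (44.1%), against 62.1% and 19.2% of protein-coding genes. MAGEB2 was highest at 339 and 349.6 TPM, and MAGEA3 (162 and 178 TPM), MAGEA2 (58.5 and 60.4 TPM) and MAGEA6 (10.9 and 11.4 TPM) were the other MAGE genes of the list at 10 TPM or more. The MAGEA copies are nearly identical and had fractional counts, so how their reads divide is uncertain. PRAME, a tumour antigen, was at 50.5 and 54.9 TPM. Several other members are mitotic or cell cycle genes that dividing cells generally express, namely PBK (123 and 124 TPM), CEP55 (85.98 and 87.6 TPM), ATAD2 (84.8 and 76.4 TPM), KIF2C (70.5 and 64.96 TPM), TTK (42.4 and 40.8 TPM) and OIP5 (34.6 and 33.3 TPM). SPAG9 (42.99 and 41.3 TPM) and ZNF165 (12.6 and 14.8 TPM) also passed 10 TPM. MAGEA1, MAGEA4, SSX2, CTAG2, GAGE1 and SYCP1 had 0 counts in both libraries.

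Antigen presentation by HLA class II is normally limited to immune cells. Of 12 genes of that pathway 9 were expressed (75.0%, against 62.1% of protein-coding genes), at low levels. HLA-DRA was at 18.4 and 21.5 TPM, HLA-DRB1 at 9.43 and 10.8 TPM and the peptide loader HLA-DMA at 8.06 and 9.09 TPM. CIITA, their master activator, chosen after its values were seen, had 4 and 4 counts, and HLA-DQA1 had 0 counts. Of 15 mucins 4 were expressed (26.7%), led by the membrane mucin MUC3A (8.32 and 7.62 TPM). The gel-forming mucin MUC2, chosen after its values were seen, had 8 and 4 counts. MUC1, the epithelial surface mucin, was at 1.69 and 2.02 TPM.

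The share of each paralogue family held by its highest gene was read in each library. In 92 families, the same gene was highest in both libraries in 91. In 78 it held at least 50% of the family's summed TPM in both, in 29 at least 90% and in 16 at least 99%. In 34 families there are 2 members, of which the higher always holds at least 50%, so for these the first count is fixed by their size. Of the 58 larger families, 44 had a member at 50% or more and 9 at 90% or more in both libraries, and 20 of the 34 pairs reached 90%. The share of the highest gene differed between the libraries by 6.03 percentage points at most, with a median of 0.70. In 84 families at least 1 member had a fractional count, so shares between near-identical members are uncertain. In 1 family, LIN28A and LIN28B, no member was expressed.

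In carbon metabolism several liver and testis forms of enzymes were at or near 0. PKM, the pyruvate kinase of muscle and tumours, was at 1118 and 1145 TPM, against 0.0362 and 0.0418 TPM for the liver and red cell form PKLR. ALDOA (999 and 865 TPM) exceeded ALDOC (119 and 119 TPM). LDHB (1259 and 1386 TPM) exceeded LDHA (739 and 758 TPM), with 62.995% and 64.7% of the summed TPM. Without the length correction LDHA was the higher of the pair, so that order depends on the lengths used. HK1 (89.2 and 82.9 TPM) exceeded HK2 (53.9 and 46.3 TPM), the hexokinase often raised in tumours. GLUT1 (SLC2A1), the basal glucose transporter, was at 367 and 294 TPM and held 94.2% and 94.9%. The phosphofructokinase of platelets, PFKP (178 and 164 TPM), exceeded the muscle form PFKM (91.3 and 91.02 TPM) and held 51.8% and 50.02% of the total. ENO1 (1794 and 1805 TPM) exceeded ENO2 (84.1 and 72.7 TPM), PGAM1 was at 722 and 721 TPM, and PGK2 and PDHA2, the testis copies of PGK1 and PDHA1, had 0 counts in both libraries. CKB (490.0 and 470.3 TPM) was the main creatine kinase.

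Respiratory chain subunits with tissue-specific copies used the ubiquitous copy. COX4I1 (212 and 232 TPM), COX7A2 (189 and 208 TPM) and COX7B (48.6 and 46.96 TPM) stood against 0 counts in both libraries for COX4I2, COX7A1 and COX7B2. COX6A1 (106 and 102 TPM), COX6B1 (333 and 351 TPM) and COX8A (304 and 290.4 TPM) each held over 99% of their family. The ADP/ATP translocase SLC25A5 (1015 and 1049.7 TPM) exceeded SLC25A6 (494 and 481 TPM). In the c subunit of ATP synthase no gene reached 50%, with ATP5MC3 at 98.1 and 101 TPM and ATP5MC2 at 77.9 and 71.8 TPM.

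The cytoskeleton and junctions gave less complete choices. Gamma-actin (ACTG1) was at 4208 and 3586 TPM and beta-actin (ACTB) at 1245 and 1039.6 TPM, so ACTG1 held 77.1% and 77.4% of the actin TPM. In counts, ACTG1 held 74.1% of the counts in library 1 (95% interval 73.9 to 74.3) and 74.5% in library 2 (95% interval 74.2 to 74.7), by the Clopper-Pearson method. Both genes had fractional counts and have processed pseudogenes. TUBB (1186 and 1095 TPM) led TUBB4B (589 and 515 TPM) among beta-tubulins, and TUBA1B (746 and 689 TPM) led TUBA1C (274 and 252 TPM) among alpha-tubulins, where TUBA3C and TUBA3D had 0 counts. KRT8 held 98.5% and 98.1% of the type II keratins, with KRT7 next (10.4 and 13.6 TPM), and KRT1, KRT2, KRT6B and KRT6C at 0. P-cadherin (CDH3) was at 130.03 and 117 TPM and exceeded CDH1 in both libraries, and CDH6 and CDH11 had 0 counts like CDH2. CLDN4 (154 and 162 TPM) and CLDN7 (108 and 109.6 TPM) led 20 claudins, of which 8 had 0 counts in both libraries. Plakoglobin (JUP) was at 259 and 237 TPM and beta-catenin (CTNNB1) at 119 and 118 TPM, an order that turned when counts were not divided by length. Lamins LMNB2 (291 and 279 TPM) and LMNA (251 and 246 TPM) were close, and their order turned without the length correction. MYH9 (265 and 231 TPM) led non-muscle myosins, GJB2 (53.001 and 50.5 TPM) connexins, CAV1 (202 and 199 TPM) caveolins and LGALS1 (1084 and 1042 TPM) galectins.

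Several families of growth control genes rested on 1 member. Cyclin D1 (CCND1) was at 440.4 and 399 TPM and held 95.8% and 96.1% of the D cyclins, with CCND3 next at 19.1 and 16.1 TPM. CCNE1 (36.4 and 38.4 TPM) exceeded CCNE2 (14.2 and 10.9 TPM), CCNB1 (227 and 224 TPM) exceeded CCNB2 (65.1 and 63.1 TPM), and CCNA2 was at 84.3 and 79.4 TPM while the germ cell cyclin CCNA1 had 0 counts in both libraries. CDK4 (149.8 and 149 TPM) exceeded CDK6 (20.1 and 16.2 TPM). MYC held 97.7% and 97.6% of its family at 316 and 301 TPM, with MYCL at 7.48 and 7.32 TPM. The inhibitor CDKN1A (p21) was at 179.9 and 172 TPM, above CDKN1B (60.8 and 63.5 TPM). NRAS (89.8 and 85.98 TPM) and HRAS (62.1 and 64.02 TPM) led 6 RAS genes with no member at 50%. BCL2L1 (271 and 269 TPM) led MCL1 (159 and 156 TPM) among pro-survival genes, with BCL2A1 and BCL2L10 at 0. The inhibitors CDKN2A (above) and CDKN2D (20.6 and 19.3 TPM) led the INK4 family, and RB1 (above) and RBL2 (26.2 and 25.9 TPM) the retinoblastoma family. IGFBP6 (110.1 and 116 TPM) and IGFBP2 (89.6 and 84.4 TPM) led the IGF-binding proteins, with IGFBP1 and IGFBP7 at 0. AKT1 (51.8 and 52.1 TPM) and PIK3CB (32.2 and 31.3 TPM) were the highest of their families. PIK3CD came second to PIK3CB with 24.5% and 24.4% of the summed TPM, and PIK3CG had 0 counts.

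Transcription and chromatin regulators also had clear leaders. TCF7L2 held 79.5% and 81.4% of the TCF and LEF factors, with TCF7L1 next (15.1 and 13.2 TPM) and LEF1 at 0 counts in both libraries. YAP1 (123 and 122 TPM) exceeded WWTR1 (32.9 and 27.8 TPM), and HIF1A (129 and 134 TPM) exceeded EPAS1 (41.7 and 43.7 TPM). SOX4 (419.9 and 442 TPM) led 19 SOX genes, of which 7 had 0 counts, and SOX9 was the second. GATA2 (54.8 and 62.05 TPM), better known from blood cells, held 79.7% and 81.6% of the GATA factors, ahead of GATA6 (10.6 and 11.1 TPM), a factor of the gut. FOXA3 (10.6 and 13.04 TPM) exceeded FOXA1 (1.70 and 1.93 TPM). DNMT1 (95.8 and 90.1 TPM), the maintenance methyltransferase, led DNMT3B (21.5 and 19.8 TPM), and TET3 (12.9 and 12.4 TPM) led TET2 (4.70 and 4.67 TPM) among the enzymes that oxidise methylcytosine. EZH2 (47.02 and 47.6 TPM) exceeded EZH1 (14.9 and 17.01 TPM), and SMARCA4 (32.96 and 29.2 TPM) exceeded SMARCA2 (2.86 and 2.40 TPM). The histone variant H2AZ1 (661 and 723 TPM) exceeded H2AZ2 (101 and 102 TPM). IRF3 (45.6 and 46.2 TPM) led the interferon regulatory factors, and TEAD1 (61.6 and 59.1 TPM) and TEAD2 (48.6 and 45.8 TPM) the TEAD factors, with no member at 50% in either family. IGF2BP2 (119 and 117 TPM) and IGF2BP3 (65.9 and 58.04 TPM), RNA-binding proteins common in tumours, were both high.

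Translation, stress and nucleotide families completed the set. EEF1A1 held 95.9% and 96.3% of its pair, although EEF1A2, normally a form of neurons and muscle, reached 327 and 318 TPM. RPL22 (365 and 396 TPM) was accompanied by RPL22L1 (255 and 276 TPM), while RPL3L and RPL39L, the copies of muscle and testis, were at 0.208 and 0.192 and 0.0617 and 0 TPM. HSP90AB1 led HSP90AA1 (2152 and 2183 TPM), and HSPA8 (872 and 899 TPM) led HSPA1B (266 and 275 TPM). S100A6 (2082 and 2301 TPM) and S100A4 led 17 S100 genes, of which S100A7, S100A8, S100A9 and S100A12, genes of skin and myeloid cells, had 0 counts in both libraries. ANXA2 (490.3 and 473 TPM) and ANXA1 (362 and 409.6 TPM) led the annexins without either reaching 50%. ALDH1A3 (195 and 192 TPM) held 99.6% and 99.6% of the retinaldehyde dehydrogenases, with ALDH1A2 next at 0.506 and 0.66 TPM. ABCC2 (172 and 211 TPM), an efflux pump of conjugated drugs, exceeded ABCC1 (78.6 and 74.3 TPM), and GSTP1 (561 and 555 TPM) led the glutathione transferases. TK1 (405 and 368 TPM) and RRM2 (146 and 126 TPM), genes of DNA synthesis, exceeded TK2 (9.49 and 9.11 TPM) and RRM2B (83.3 and 87.97 TPM). IDH1 (103 and 106 TPM) exceeded IDH2 (60.5 and 53.04 TPM), PARP1 (191 and 184 TPM) exceeded PARP2 (26.6 and 28.5 TPM), and the lactate exporter SLC16A3 (162 and 157 TPM) exceeded SLC16A1 (101 and 106 TPM). POLR3G (39.6 and 40.7 TPM), the RNA polymerase III subunit of undifferentiated cells, exceeded POLR3GL (16.5 and 14.2 TPM). PRPS1 (86.9 and 98.1 TPM) and PRPS2 (87.99 and 82.2 TPM) formed the single family whose highest gene changed between the libraries, so neither can be called the higher.

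**Figure D5:**
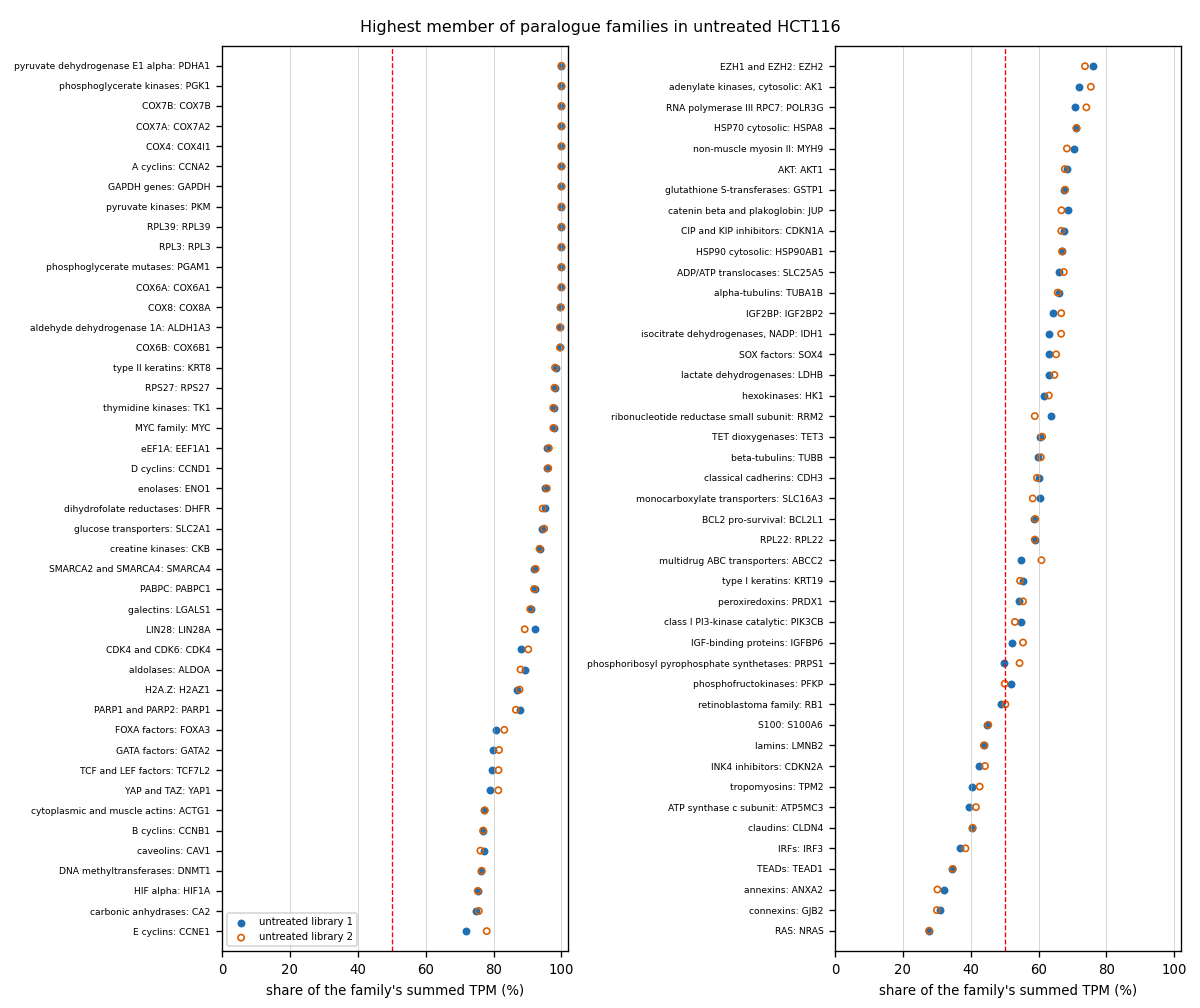
Share of a family's summed TPM (%) held by its highest gene, for 87 of the 92 paralogue families, with 1 filled and 1 open point for the 2 untreated libraries. The dashed line is at 50%. The points of the 2 libraries nearly coincide, 74 families lie at or above the line in both, and 28 lie at or above 90%.

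Large families marked the limits of detection. Of 380 olfactory receptors, 362 had 0 counts in both libraries (95.3%) and 3 were expressed (0.789%), against 19.2% and 62.1% of protein-coding genes. OR51B4 was the exception at 77.2 and 70.3 TPM (chr11:5301014-5301946, minus strand), against 1.59 and 2.68 TPM for OR51B2 and 2.43 and 1.72 TPM for OR2A7. None of 37 beta-defensins or of 16 genes of the protocadherin beta cluster was expressed, and 1 of 93 keratin-associated proteins was (KRTAP2-3, 5.05 and 2.87 TPM). Of 509 zinc finger genes named ZNF, 361 were expressed (70.9%), and of 369 solute carriers 216 were (58.5%), against 62.1% of all protein-coding genes. ZNF146 was highest of the first (156 and 160.4 TPM), and the amino acid transporter SLC38A2 (726 and 839 TPM) stood next to SLC25A5 among the second.

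Drug and vitamin metabolism showed 1 strong gene. Of 55 cytochromes P450, 19 were expressed (34.5%, against 62.1% of protein-coding genes) and 9 reached 10 TPM in both libraries. CYP24A1, which inactivates vitamin D, was far above the others at 175 and 181 TPM. CYP27B1, which makes the active form of vitamin D, was at 13.4 and 12.8 TPM, and CYP2R1, which acts before it, at 13.1 and 13.4 TPM. CYP2S1 (27.7 and 30.3 TPM), the retinoic acid hydroxylase CYP26B1 (27.02 and 28.995 TPM), CYP20A1 (17.2 and 16.7 TPM), CYP4F11 (17.7 and 15.5 TPM), CYP4F22 (13.5 and 12.9 TPM) and CYP2U1 (11.9 and 11.004 TPM) made up the rest. CYP3A4, the main drug-metabolising enzyme of liver and gut, had 0 counts in both libraries.

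All 14 core subunits of the proteasome and 78 of 81 ribosomal protein genes were expressed, against 62.1% of protein-coding genes. PSMA7 was at 333 and 341 TPM, but PSMA6 was at 4.27 and 4.58 TPM and PSMA2 at 3.70 and 3.20 TPM, although each core particle holds every one of these subunits. Both share 14.6% (PSMA2) and 14.1% (PSMA6) of their exon bases with another gene on the same strand, and the part of this overlap in the low counts was not tested. Of 384 protein-coding genes with at least 90% of their exon bases shared in this way, 2.34% were expressed and 61.5% had 0 counts in both libraries, against 56.9% and 24.4% of 11018 genes with no shared base. Of 136 genes sharing at least 50% with a gene on the opposite strand alone, 55.9% were expressed. The reason for the difference was not tested, since how reads were assigned is not known. A 0 of a gene that overlaps another on the same strand is uncertain as a sign of absence.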

How the data were processed

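Expression was measured by RNA sequencing, and the 2 untreated libraries were assigned by their titles. Of the deposited table, the columns of 4 treated libraries were not used. The authors deposited estimated counts, many of them not whole numbers (27.0% of the values above 0 in each library), for 60675 Ensembl genes. Per the submitters' processing notes, the tools were HISAT2, featureCounts (Subread 1.6.2), Trimmomatic 0.32, FastQC 0.11.8 and edgeR 3.26.4, on GRCh38. How reads were assigned to overlapping or near-identical genes (strand setting, fractional rule, annotation) was not given in the sources used here, so the values of such genes are uncertain.

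TPM was computed from the counts as deposited and the union of exons in GENCODE 29 (57055 genes with a length). The summed counts were 28816590 and 24945320. No test between groups was run, since there is 1 group. Spread was estimated with edgeR 4.0.16 (R 4.3.3) as a common dispersion on rounded counts after filterByExpr and TMM scaling, and the estimate was checked on simulated data. Intervals at 95% are exact Poisson or Clopper-Pearson intervals and cover counting error only.

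The gene lists and the rule for naming genes were chosen with earlier results of these data known. Named were TERT and its partners, the 15 highest nuclear protein-coding and 3 highest non-coding genes, up to 5 highest and up to 8 undetected members of each list, the highest, second and undetected members of each paralogue family, members of at least 10 TPM in lists of other cell types, large families and cancer-testis genes, the 5 genes that differed most between the libraries, and the markers of colorectal epithelium. For the zinc finger, solute carrier, ribosomal and proteasome lists, and for some paralogue families, members are summarised rather than named. The list entries HPP1 and BAGE matched no row. Alternatives to the threshold, the gene length, the TPM sum, rounding and the libraries used were computed. Promoter windows came from RefSeq (GRCh38.p14). A few genes covered by this rule are left out of the text and of the figures (not reported here).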

Additional observations from a re-analysis of the deposited data

How the results depend on the processing

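No paired analysis was possible because only 1 group is described. The count of 12229 expressed protein-coding genes ranged from 10357 (at 5 TPM) to 12793 (at 0.5 TPM), and with either library alone it was 12335 to 12363. The lineage, other cell type, receptor, telomerase and silenced lists held 385 different genes called expressed. That number was 293 to 421 over the alternatives, and 387 to 398 with either library alone. Of 92 families, 78 had a dominant member at 50% of the summed TPM, 29 at 90%, and 79 to 80 with either library alone. The TERT level of 6.48 TPM (6.41 to 6.55 with either library alone) was 5.70 with the length of the longest transcript, 9.04 with mitochondrial genes left out of the sum, and 5.98 with shared exon bases left out of the length, an alternative chosen after the data were seen. The coefficient of variation of 4.41% was 4.41% with RLE scaling, 4.40% with library totals and 4.48% without a filter. Of 351 list counts under alternatives, 320 stayed within 1.5-fold, 15 were lower and 16 higher. With library 1 alone, 1 Paneth gene and 1 pluripotent or germ cell gene passed in place of 0, and 2 tuft cell genes in place of 1. The highest member changed in 12 of 92 families: in 9 without the length correction (among them lactate dehydrogenases, type I keratins, lamins, tropomyosins, connexins, beta-catenin and plakoglobin, IGF-binding proteins), in 3 with the longest transcript (ATP synthase c subunit, lamins, RAS) and in 1 with library 1 alone (PRPS1 and PRPS2). The depth sets a floor of 0.104 and 0.120 CPM, under which absence cannot be told from low expression. How the counting of nearly identical and overlapping genes moved their values was not tested.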

Other observations

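The most expressed olfactory receptor gene, OR51B4, lies in the beta-globin region of chromosome 11, and the genes around it were looked at after its value was seen. HBE1, the embryonic beta-like globin gene, is annotated at chr11:5268345-5505652 on the same (minus) strand, spans OR51B4, and was at 386 and 391 TPM (3236 and 2838 counts). Its counts were fractional, and 90.01% of its exon bases are shared with another gene on the same strand. HBG2, whose annotated span also covers OR51B4, was at 13.5 and 11.3 TPM. AC104389.28, another overlapping gene of that strand, was at 20.7 and 21.5 TPM. HBB, the adult beta-globin gene, had 0 and 2 counts, and HBD 1 and 2. On the same strand within that span, the pseudogenes OR51B3P (55 and 31 counts) and OR51B8P (31.4 and 14 counts) and the gene OR51B2 (13 and 19 counts) also had counts. OR51B6, OR51M1, OR51Q1, OR51I2 and OR52D1, which lie within the span on the plus strand, had 0 counts in both libraries. Whether the OR51B4 reads belong to a transcript of their own or to the long transcripts that cross it was not tested.

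The MAGE genes, many of them silent outside the germ line, were read by position. On the X chromosome MAGEB2 was at 339 and 350 TPM, while its annotated neighbours MAGEB3 (1 and 9 counts), MAGEB4 (0 and 1) and MAGEB1 (4 and 3) were near 0. In the MAGEA cluster, MAGEA3, MAGEA2, MAGEA2B (45.4 and 46.4 TPM) and MAGEA6 were expressed together with CSAG2 (17.8 and 16.6 TPM) and CSAG3 (35.6 and 40.4 TPM). MAGEA12, which lies between them, had 0.25 and 0.92 counts, and MAGEA1, MAGEA4, MAGEA8 and MAGEA10 had 0. The MAGED, MAGEE, MAGEF and MAGEH genes were divided. MAGEF1 (114 and 122 TPM), MAGED1 (52.3 and 47.6 TPM), MAGED2 (51.5 and 49.1 TPM) and MAGEE1 (6.26 and 5.18 TPM) were expressed. MAGED4, MAGED4B, MAGEE2 and MAGEH1 had 0 counts in both libraries, and so did MAGEC1 to MAGEC3.

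The long non-coding RNA UCA1, named for urothelial cancer, was at 223 and 246 TPM, close to MALAT1 at 229 and 269 TPM, and both were named after their values were seen.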
